A study of Mus musculus with 18 samples.

Results

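The nuclear genes of oxidative phosphorylation were followed across 18 RNA-seq libraries of mouse bone marrow derived macrophages. Members were chosen by symbol alone: Nduf followed by a, b, c, s or v and a digit, Sdha to Sdhd, all Uqcr names, Cyc1, the Cox4 to Cox8 names, and all Atp5 names, leaving out the Ndufaf assembly factors and names ending in -ps. This gave 85 of the 21954 genes listed, of which 35 code for subunits of complex I, 4 for complex II, 9 for complex III, 19 for complex IV and 15 for complex V. The other 3 are Atp5s, Atp5sl and Cox7a2l. After a filter on low counts, 80 of the 85 members remained among 12514 genes tested. The 5 that did not pass, all of complex IV, were Cox6b2, Ndufa4l2, Cox7b2, Cox8b and Cox8c.

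The macrophages came from a macrophage-specific knockout of L13a (KO), a ribosomal protein whose gene symbol is Rpl13a, or were wild type (WT). Each genotype was treated with IL4 (libraries 7 to 9), treated with IFN (libraries 4 to 6) or left untreated (libraries 1 to 3), so that 6 groups held 3 libraries each. The labels used here give no mouse strain, age, Cre driver, interferon type, dose or duration. They also do not say whether replicates came from separate animals or cultures, so p-values measure only the spread between these libraries.

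Oxidative phosphorylation passes electrons from NADH (complex I) and succinate (complex II) through ubiquinone to complex III, then by cytochrome c to complex IV, which reduces oxygen. The protons pumped on the way drive ATP synthesis by complex V. Most subunits are coded in the nucleus and imported, while a small core of complexes I, III, IV and V is coded by mitochondrial DNA. In mouse macrophages, IL-4 is classically tied to oxidative metabolism through Ppargc1b (the coactivator PGC-1β), and interferon gamma, together with bacterial products, to glycolysis.

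Promoters are shown because short motifs near the start site are a feature that the choice by symbol did not use. The members lie on 19 chromosomes. RefSeq windows (GRCm38.p6) of 300 bases around the start were found for 66 of the 85 members, in 71 windows. The 4 sequences below are the 180 bases before the start of a complex IV, 2 complex I and a complex V gene, all called in the IFN comparison of KO cells below. NRF1 and ETS factors are known regulators of nuclear genes for mitochondrial proteins. Capitals mark, on either strand, the core of the NRF1 motif CGCATGCG, the ETS motif CCGGAAG or the YY1 motif AAGATGGCG.
Cox6a1, chr5:115348959-115349138, minus strand: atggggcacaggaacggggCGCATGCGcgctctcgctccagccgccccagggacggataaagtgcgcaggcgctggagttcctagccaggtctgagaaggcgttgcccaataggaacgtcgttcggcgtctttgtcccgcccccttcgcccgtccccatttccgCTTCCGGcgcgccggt
Ndufa11, chr17:56717582-56717761, plus strand: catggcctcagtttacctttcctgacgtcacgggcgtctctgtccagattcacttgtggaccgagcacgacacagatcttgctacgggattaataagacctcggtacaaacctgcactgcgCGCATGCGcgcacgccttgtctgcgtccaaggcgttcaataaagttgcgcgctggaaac
Ndufs3, chr2:90904722-90904901, minus strand: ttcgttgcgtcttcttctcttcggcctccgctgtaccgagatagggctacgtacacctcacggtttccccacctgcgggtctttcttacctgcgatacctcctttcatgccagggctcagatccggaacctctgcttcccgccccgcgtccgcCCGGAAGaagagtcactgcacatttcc
Atp5j, chr16:84834977-84835156, minus strand: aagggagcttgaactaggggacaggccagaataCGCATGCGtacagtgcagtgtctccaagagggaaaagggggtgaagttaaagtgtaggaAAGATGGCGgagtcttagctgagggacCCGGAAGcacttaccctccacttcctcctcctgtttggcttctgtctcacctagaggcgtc

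In Cox6a1 the NRF1 core begins 161 bases before the start and the ETS motif 16 bases before it, on the other strand. The NRF1 core of Ndufa11 begins 59 bases before the start, and the ETS motif of Ndufs3 27 bases before it. These distances are from the RefSeq starts. The ETS matches of Cox6a1 and Ndufs3 lie within the genes as annotated in GENCODE vM21 (chr5:115345642-115348981 and chr2:90894634-90904827). The second of the windows listed for Atp5j is shown, with the NRF1 core 147, the YY1 motif 88 and the ETS motif 61 bases before the start. It lies within the annotated gene. The first window (chr16:84835626-84835805) directly precedes the annotated start of the gene and holds none of these motifs. Searched on both strands, the NRF1 letters occurred in 9 of 71 member windows (12.7%), against 1.87% of all 32851 promoter windows of the same length. The ETS letters occurred in 16 member windows (22.5%), against 8.86% of all, and the YY1 letters in 7 (9.86%), against 1.4% of all. The ERR motif TGACCTT was found in 8 member windows (11.3%), against 4.72% of all. Motifs linked to the cytokines were near the share of all windows: the interferon-stimulated type GAAANNGAA was in 7 member windows (9.86%, against 8.56%) and the STAT6 type, TTC and GAA with 4 bases between them, in 4 (5.63%, against 6.95%). Forms of 10 letters were searched first, and the NRF1 and interferon-stimulated letters were shortened after those shares had been seen. The longer NRF1 form occurred in 5 member windows (7.04%, against 0.971% of all), and the longer interferon-stimulated form in 2 (2.82%, against 3.44%), so that the order of members and all windows depends on the length for the interferon-stimulated type. Median GC content was 57.3% in member windows and 52.7% in all windows. A match is a description of letters, not a bound site.

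Most members were abundant. In TPM, which are scaled for transcript length and library size so that different genes can be compared, 59 of the 85 members averaged at least 100 over the 18 libraries, 20 averaged between 1 and 100, and 6 were under 1. The highest mean levels were those of 3 complex IV genes, Cox6a1 (1089 TPM), Cox4i1 (1068 TPM) and Cox8a (1011 TPM). In complex I the means ran from 27.3 TPM for Ndufa11 to 254 TPM for Ndufb8, both accessory subunits of the membrane arm. In complex II they ran from 158 TPM for Sdha, the flavoprotein, to 277 TPM for Sdhc, a membrane anchor. In complex III they ran from 105 TPM for Uqcrc2, a core protein, to 385 TPM for Uqcr10, a small subunit, and in complex V from 91.3 TPM for Atp5k to 731 TPM for Atp5b, the catalytic beta subunit. The 3 genes that code for the same mature ring subunit c, Atp5g1, Atp5g2 and Atp5g3, averaged 248, 496 and 372 TPM. Levels varied little between libraries: the highest library was less than 3 times the lowest for 72 members, with a ratio of 1.42 for Sdhc.

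The isoforms known from other tissues were near the floor. Cox4i2, the lung isoform of subunit 4, averaged 0.727 TPM beside the 1068 TPM of Cox4i1. The heart and skeletal muscle isoforms Cox6a2 and Cox7a1 averaged 1.30 and 9.52 TPM, beside 1089 TPM for Cox6a1 and 275 TPM for Cox7a2. The testis isoform Cox6b2 averaged 0.947 TPM, beside 513 TPM for Cox6b1. Ndufa4, first assigned to complex I and now to complex IV, averaged 374 TPM, and its relative Ndufa4l2 0.0922 TPM. Cox7b2, Cox8b and Cox8c had 0 counts in all 18 libraries.

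**Figure D1:**
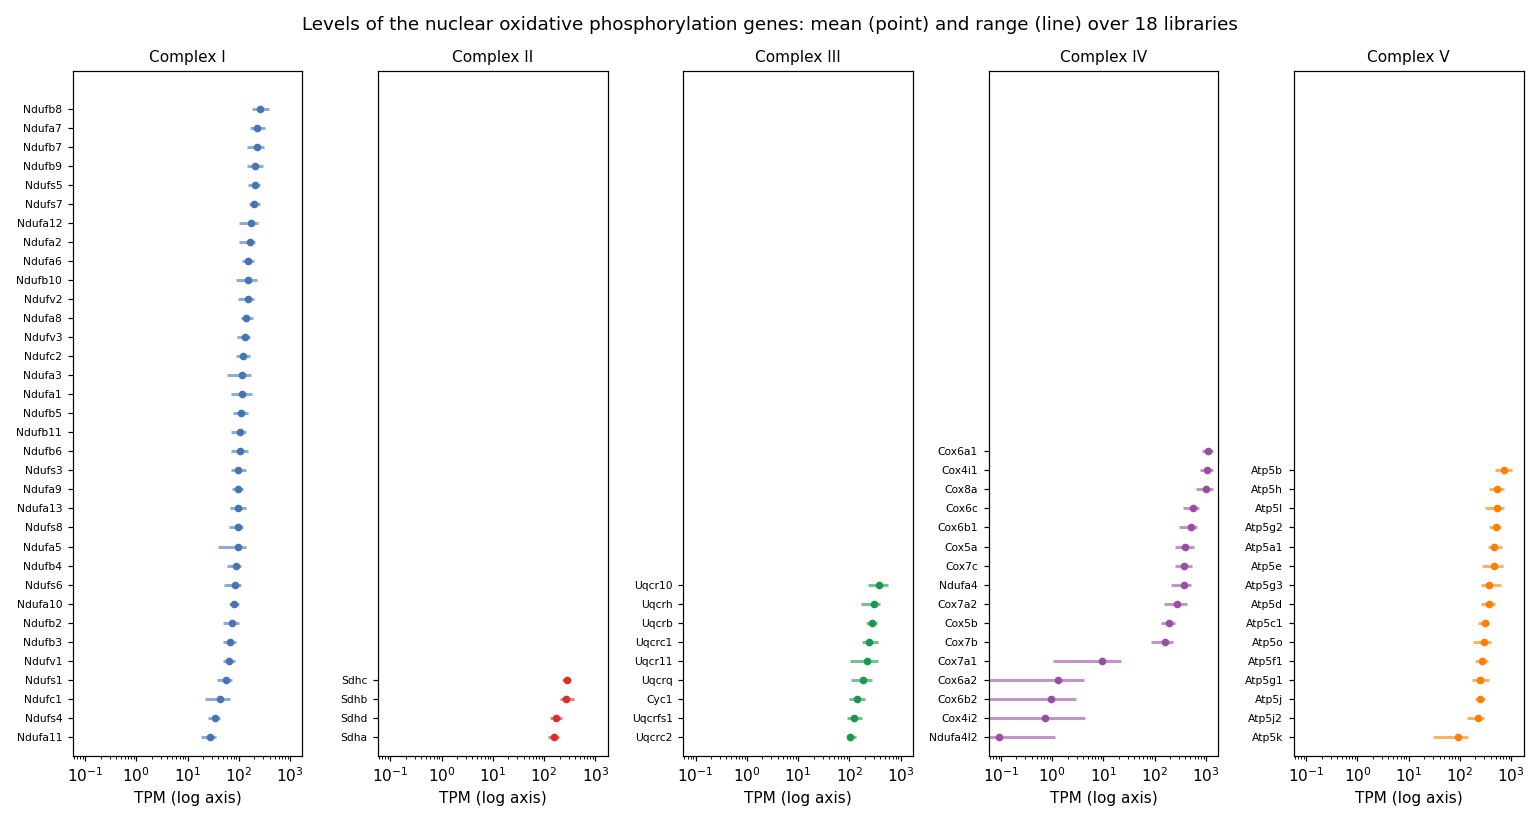
Mean (point) and range (line) of TPM over 18 libraries for 78 members of complexes I to V with counts, on a log axis, with a value of 0 drawn at the left edge. Most members lie above 100 TPM, and Cox6a1, Cox4i1 and Cox8a have the highest means, while the tissue isoforms of complex IV lie at or below 9.52 TPM on average.

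Several facts of the libraries bear on what follows. Total expected counts ran from 18098711 to 28477342, and members took 0.603% to 1.14% of them. Rpl13a stood at 206, 333 and 606 CPM (counts scaled to TMM-normalized library size) in KO IL4, 248, 189 and 425 in KO IFN and 156, 201 and 401 in KO untreated, against 598, 743 and 867 in WT IL4, 437, 552 and 618 in WT IFN and 617, 745 and 746 in WT untreated. The targeted gene was thus lower on average in KO but still read in every KO library, and 1 KO IL4 library lay above 1 WT IL4 library. The fold change over treatments was -1.11 on the log2 scale (edgeR adjusted p = 0.0510). Y-linked transcripts summed to 134 to 191 CPM in 5 WT libraries (1 untreated, 2 IFN and 2 IL4) and to 1.19 to 3.19 CPM in the other 13, among them all KO libraries, so that this difference is partly shared with genotype. Summed macrophage markers were 7612 to 13313 CPM in KO and 11293 to 21496 CPM in WT, and all 12 were detected in every group. Of these 12, Lyz2, a lysozyme gene of myeloid cells at which a common myeloid Cre is inserted, stood at 0.682 to 7.12 CPM in KO, against 2881 to 12108 CPM in WT, and is part of both sums. Lyz2 made up 25.8% of the list over the 18 libraries, nearly all of it from WT. The lower KO sums therefore do not show that the other macrophage markers were lower in KO. In bulk RNA, fewer cells of a type and less RNA per cell cannot be told apart.

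Markers of other cell types moved with the groups as well. The 14 fibroblast markers summed to 174 to 1091 CPM in KO IL4, 36.9 to 829 in KO IFN and 106 to 402 in KO untreated, against 232 to 563 in WT IL4, 107 to 192 in WT IFN and 813 to 881 in WT untreated. Fn1 and Col1a1 made up most of this sum, while Lum was at 0 in 16 of 18 libraries and Dcn in 10. The 8 bone-forming cell markers summed to 881 to 1308 CPM in KO IL4, 257 to 482 in KO IFN and 804 to 1141 in KO untreated, against 792 to 1498 in WT IL4, 329 to 459 in WT IFN and 1006 to 1281 in WT untreated. Spp1, which macrophages also express, was 94.7% of that sum, and Bglap was at 0 in 14 libraries. The 6 osteoclast markers summed to 625 to 1181 CPM in KO IL4, 38.7 to 115 in KO IFN and 155 to 275 in KO untreated, against 752 to 770 in WT IL4, 28.1 to 49.1 in WT IFN and 195 to 213 in WT untreated. Atp6v0d2 was 85.5% of it, and Calcr was at 0 in all 18 libraries. These 3 lists were thus lower with IFN than with IL4 in WT, as were the osteoclast and bone-forming lists in KO, where the fibroblast sums overlapped.

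The 5 endothelial markers, of which Vwf was 83.3%, summed to 182 to 369 CPM in KO IL4, 25.4 to 56.2 in KO IFN and 48.6 to 122 in KO untreated, against 195 to 284 in WT IL4, 32.1 to 43.3 in WT IFN and 50.4 to 78.2 in WT untreated, with Tek at 0 in 11 libraries. The 9 dendritic cell markers summed to 37.9 to 52.2 CPM in KO IL4, 53.2 to 111 in KO IFN and 15.4 to 20.9 in KO untreated, against 16.5 to 31.1 in WT IL4, 48.0 to 129 in WT IFN and 8.76 to 11.9 in WT untreated, with Siglech at 0 in 15 libraries. The 6 markers of cycling cells summed to 199.96 to 888 CPM in KO and 604 to 850 CPM in WT. The part of these markers in the differences between groups was not tested.

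Members are short: their median effective length was 0.230 of the scale on which all genes tested have a median of 0.999. Libraries differed in a trend with transcript length over all genes, given here as the change of log2 level per doubling of length. It was 0.136, -0.06 and -0.06 in KO IL4, -0.11, 0.000387 and -0.05 in KO IFN and 0.163, 0.0883 and 0.0583 in KO untreated. In WT it was 0.0461, -0.10 and -0.07 with IL4, 0.115, -0.05 and -0.14 with IFN and 0.0428, -0.0036 and -0.0028 untreated. Short transcripts were thus relatively lower in all 3 KO untreated libraries, and the median of each comparison below is also given after removing this trend from every library.

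The median level of the members differed between libraries, which does not show that single members moved together. The median over 80 members of log2 CPM minus the gene's own mean was -0.30, 0.21 and 0.32 in KO IL4, 0.29, 0.08 and 0.34 in KO IFN and -0.63, -0.51 and -0.22 in KO untreated. In WT it was -0.11, 0.36 and 0.38 with IL4, -0.34, 0.11 and 0.48 with IFN and -0.34, 0.02 and -0.04 untreated. In KO, all 3 IFN libraries lay above all 3 untreated ones, while IL4 library 7 lay below untreated library 3. In WT, the IFN libraries spread on both sides of the untreated ones.

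**Figure D2:**
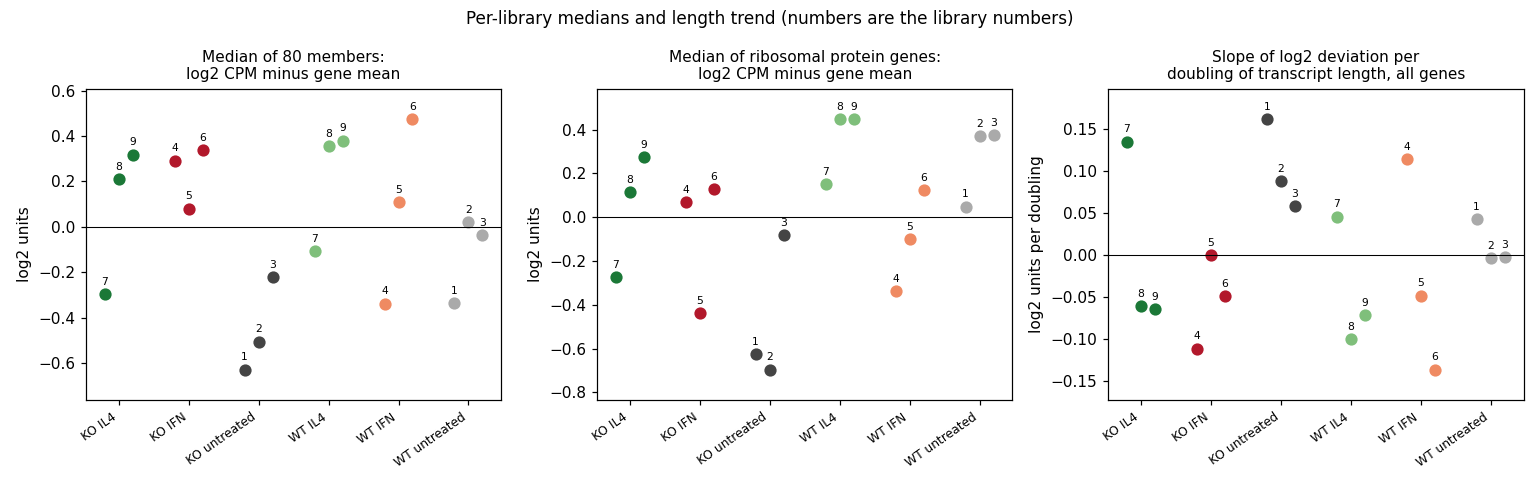
Per library and group: the median over 80 members of log2 CPM minus the gene mean, the same median over ribosomal protein genes, and the slope of log2 level per doubling of transcript length over all genes. KO untreated libraries 1 and 2 have the lowest member medians (-0.63 and -0.51), and all 3 KO untreated libraries have positive slopes (0.163, 0.0883 and 0.0583).

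The IFN response in KO cells was where the members differed most often. Of the 80 tested, 36 rose in KO IFN over KO untreated and none fell (45.0%, edgeR's quasi-likelihood test, Benjamini-Hochberg adjusted p under 0.05). Over all genes tested 12.2% were called higher and 8.42% lower. The median log2 fold change was 0.68 over the members and -0.03 over all genes. In 59 members (73.8%) all KO IFN libraries lay above all KO untreated libraries, against 18.8% of all genes. Complex IV had the highest median, 1.04, with 9 of 14 members called, followed by complex I with 0.71 and 14 of 35, complex V with 0.69 and 8 of 15, complex III with 0.54 and 3 of 9, and complex II with 0.44 and 1 of 4.

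**Figure D3:**
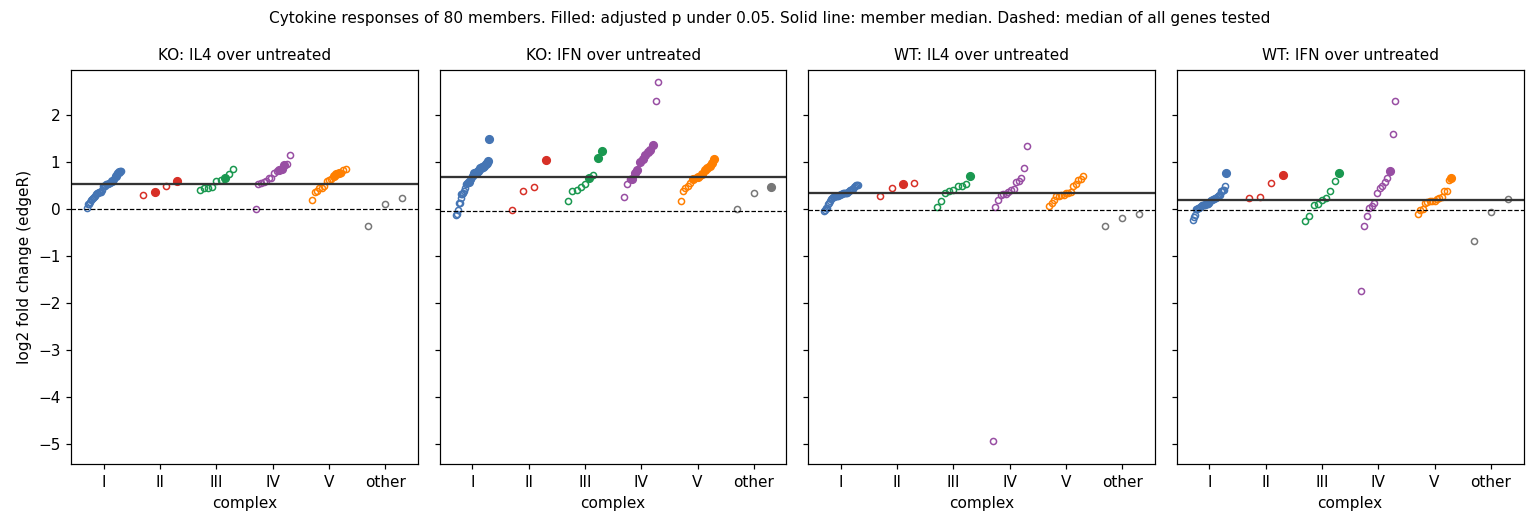
Log2 fold change of each of 80 members, by complex, for IL4 and IFN over untreated in KO and in WT. Filled points passed an adjusted p under 0.05, and the solid line is the member median (0.55 and 0.68 in KO, 0.34 and 0.19 in WT), above the dashed median of all genes in each panel.

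In complex I, Ndufs3, a core subunit of the peripheral arm (chr2:90894634-90904827, mm10, minus strand), had 84.5, 73.0 and 71.5 CPM in KO IFN, against 37.7, 35.4 and 38.6 CPM in KO untreated. The groups lay far apart, and the log2 fold change was 1.04 (SE 0.21, edgeR adjusted p = 0.00200). Ndufb4, an accessory subunit of the membrane arm, had 57.3, 44.7 and 57.8 CPM in KO IFN, against 25.5, 24.7 and 30.7 CPM in KO untreated, a log2 fold change of 0.98 (SE 0.20, edgeR adjusted p = 0.00212). Ndufa6, an accessory subunit, had 52.3, 45.4 and 47.5 CPM in KO IFN, against 30.3, 27.6 and 24.8 CPM in KO untreated, a log2 fold change of 0.81 (SE 0.15, edgeR adjusted p = 0.00111). Its call was lost once the length trend was removed (0.28, edgeR adjusted p = 0.294). The core iron-sulfur subunits Ndufs7 (0.88, edgeR adjusted p = 0.00272) and Ndufs8 (0.76, edgeR adjusted p = 0.0124) also rose. Not all core subunits did: Ndufs1, the largest iron-sulfur subunit, had 73.5, 61.1 and 77.0 CPM in KO IFN, against 73.0, 74.9 and 83.4 CPM in KO untreated (-0.13, edgeR adjusted p = 0.463). Ndufv1, which binds NADH, had a log2 fold change of -0.01 and overlapped with KO untreated.

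Complex II was divided. Sdhb, its iron-sulfur subunit (chr4:140961203-140979193, plus strand), had 219, 220 and 238 CPM in KO IFN, against 108, 109 and 110 CPM in KO untreated. Every KO IFN library was near 2 times every KO untreated library, and the log2 fold change of 1.05 (SE 0.16, edgeR adjusted p = 0.000188) had the lowest p of all members. Sdha, the flavoprotein that carries the succinate site (chr13:74322254-74350280, minus strand), had 216, 253 and 236 CPM in KO IFN, against 242, 227 and 243 CPM in KO untreated. These groups overlapped, with a log2 fold change of -0.02 (SE 0.11, edgeR adjusted p = 0.939). The membrane anchors Sdhc and Sdhd lay between, with 0.40 and 0.48 and no call.

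In complex III, Cyc1, cytochrome c1 (chr15:76343523-76346260, plus strand), had 97.9, 91.1 and 110 CPM in KO IFN, against 55.5, 63.7 and 69.9 CPM in KO untreated. The groups did not overlap and the log2 fold change was 0.66 (SE 0.20, edgeR adjusted p = 0.0260). The small subunits Uqcr10 (1.24, edgeR adjusted p = 0.00489) and Uqcrq (1.09, edgeR adjusted p = 0.0219) rose as well, whereas the Rieske protein Uqcrfs1 (0.40) and the core protein Uqcrc1 (0.18) did not pass.

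In complex IV, where nuclear subunits surround a mitochondrially coded core, 9 of 14 members rose. Cox8a (chr19:7215153-7217616, minus strand) had 302, 306 and 352 CPM in KO IFN, against 131, 142 and 159 CPM in KO untreated, a log2 fold change of 1.15 (SE 0.20, edgeR adjusted p = 0.000608). Cox7a2 (chr9:79755361-79759878, minus strand) had 144, 101 and 125 CPM in KO IFN, against 41.1, 39.3 and 61.6 CPM in KO untreated, a log2 fold change of 1.38 (SE 0.25, edgeR adjusted p = 0.00101). In neither gene did the groups overlap. Cox7b had 130, 96.8 and 111 CPM in KO IFN, against 35.9, 44.5 and 59.3 CPM in KO untreated (1.27, SE 0.24, edgeR adjusted p = 0.00138). Cox7c had 117, 96.6 and 132 CPM in KO IFN, against 47.5, 48.9 and 52.6 CPM in KO untreated (1.21, SE 0.23, edgeR adjusted p = 0.00134). On average these 4 small subunits stood at over 2 times their untreated level. Cox4i1, Cox5b, Cox6a1, Cox6b1 and Cox6c were called too, with log2 fold changes from 0.64 for Cox4i1 to 1.07 for Cox6c, while Cox5a (0.64, edgeR adjusted p = 0.162) and Ndufa4 (0.55, edgeR adjusted p = 0.137) were not, and neither were Cox4i2, Cox6a2 and Cox7a1.

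In complex V, Atp5b (chr10:128083273-128090391, plus strand) had 734, 817 and 949 CPM in KO IFN, against 418, 523 and 646 CPM in KO untreated, a log2 fold change of 0.66 (SE 0.21, edgeR adjusted p = 0.0354). Its partner in the catalytic head, the alpha subunit Atp5a1, had 554, 617 and 705 CPM in KO IFN, against 470, 528 and 671 CPM in KO untreated, and the groups overlapped (0.17, edgeR adjusted p = 0.626). Atp5c1, the gamma subunit of the rotating shaft, rose by 0.69 (edgeR adjusted p = 0.00621), Atp5h of the stator by 0.85 (edgeR adjusted p = 0.00842) and Atp5l of the membrane part by 1.08 (edgeR adjusted p = 0.0139). None of the 3 subunit c genes passed, with log2 fold changes of 0.67 for Atp5g1, 0.38 for Atp5g2 and 0.50 for Atp5g3. Outside the complexes, Cox7a2l, which helps join complexes III and IV into supercomplexes, rose by 0.46 (SE 0.15, edgeR adjusted p = 0.0362).

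Of the 8 members with the lowest p, 7 were called in all 14 alternatives and Ndufa6 in 13. With the length trend removed, the KO IFN median was 0.31 and 32 members were called, 31 higher and 1 lower, 29 of them also called without that step, among 21.0% of all genes. The count was 18 without KO untreated library 1 or KO IFN library 6, 19 without KO untreated library 2, and 19 (17 higher, 2 lower) in limma on log2(TPM + 1), where the median was 0.31 over members and -0.31 over all genes. Where the share of all genes called in a refit is not given, here and below, the count does not show a change of the members alone. Of the 80 members, 76 had an expected count that was not whole in at least 1 library, so that reads shared with similar sequences, such as processed pseudogenes, were divided by the authors' estimate.

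**Figure D4:**
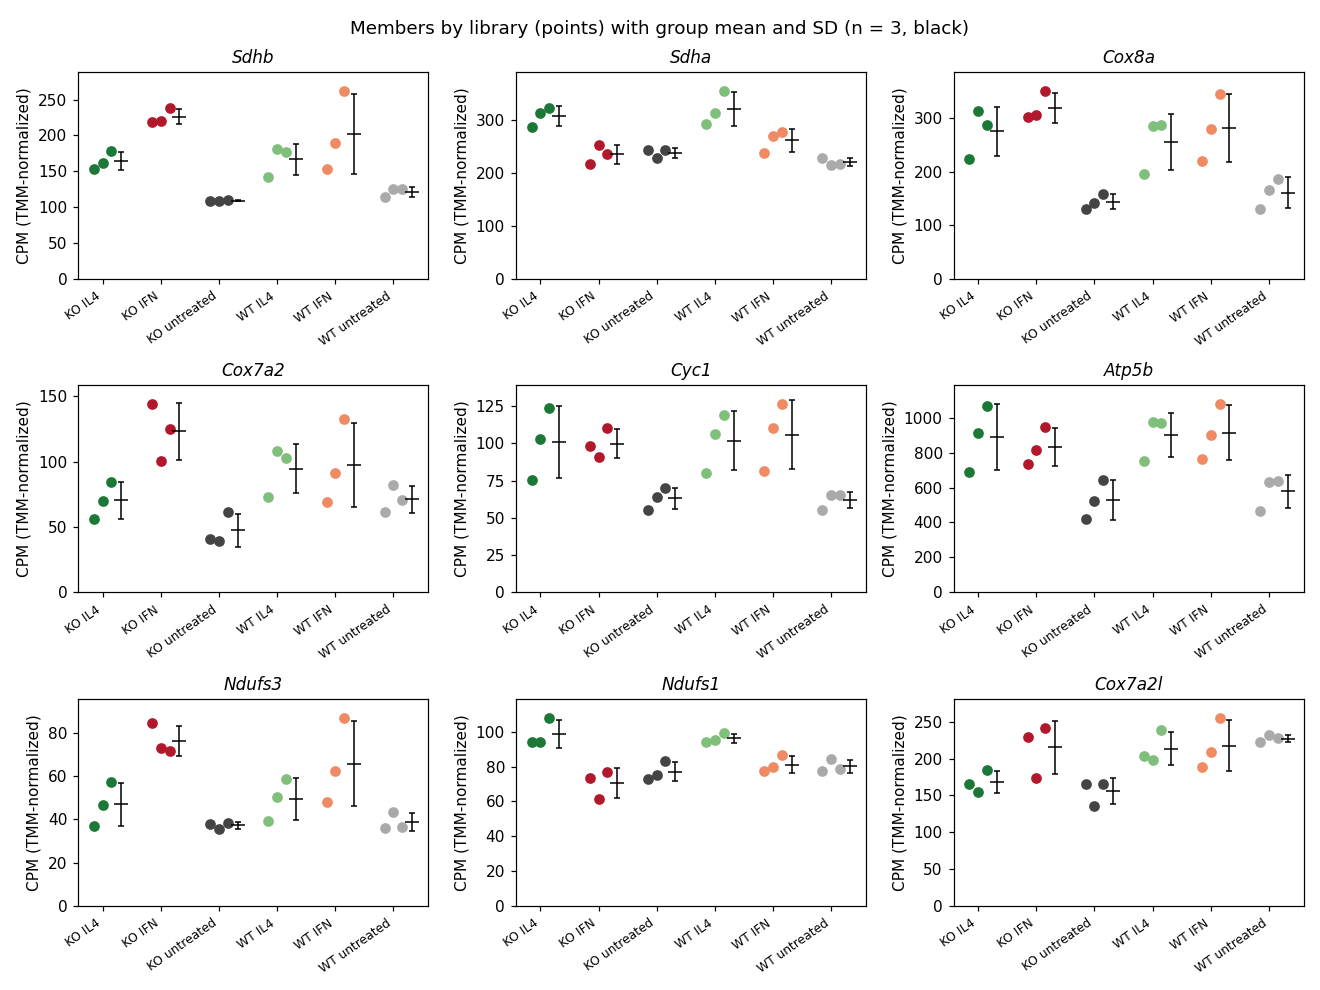
CPM by library (points) with group mean and SD (black, n = 3) for 9 members, axes from 0. Sdhb, Cox8a, Cox7a2 and Ndufs3 in KO IFN lie above every KO untreated library, whereas Sdha and Ndufs1 in KO IFN overlap with KO untreated.

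In WT cells, IFN called fewer members. Of 80, 5 rose over WT untreated and none fell (6.25%), against 10.6% of all genes called higher and 6.99% called lower, so the share of members was below that of all genes. The median log2 fold change was 0.19 over members and -0.02 over all genes. It was -0.0079 without WT IFN library 6, 0.37 without WT IFN library 4 and 0.23 with the length trend removed. In WT, 11 members (13.8%) had all WT IFN libraries above all WT untreated ones, against 18.7% of all genes. The 5 called were 1 member of each complex: Ndufs3, Sdhb, Cyc1, Cox8a and Atp5b. All 5 were also among the 36 called in KO, of which they are 13.9%.

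Sdhb had 153, 189 and 262 CPM in WT IFN, against 114, 126 and 125 CPM in WT untreated (0.73, SE 0.16, edgeR adjusted p = 0.00406). Cox8a had 220, 280 and 346 CPM in WT IFN, against 131, 165 and 187 CPM in WT untreated (0.81, SE 0.20, edgeR adjusted p = 0.00898). Cyc1 had 81.1, 110 and 126 CPM in WT IFN, against 55.6, 65.1 and 65.3 CPM in WT untreated (0.77, SE 0.20, edgeR adjusted p = 0.0120). None of these groups overlapped, although the WT IFN libraries of each gene spread widely. Ndufs3 had 47.9, 62.6 and 87.2 CPM in WT IFN, against 36.1, 43.4 and 36.7 CPM in WT untreated (0.77, SE 0.21, edgeR adjusted p = 0.0162). Atp5b had 762, 904 and 1077 CPM in WT IFN, against 468, 630 and 638 CPM in WT untreated (0.66, SE 0.21, edgeR adjusted p = 0.0384).

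Of the small complex IV subunits that rose in KO, Cox7a2, Cox7b, Cox7c and Cox6c overlapped in WT, whereas Cox8a did not. Cox7c had 62.5, 74.0 and 126 CPM in WT IFN, against 71.7, 87.0 and 90.9 CPM in WT untreated (0.07, edgeR adjusted p = 0.880). Cox6c had 82.9, 96.1 and 150 CPM in WT IFN, against 97.0, 133 and 136 CPM in WT untreated (-0.15, edgeR adjusted p = 0.706). The lowest WT IFN library, number 4, lay below all WT untreated libraries in both genes, and number 6 above all of them. The WT count was 1 without WT untreated library 1 or WT IFN library 6, 3 without WT untreated library 3, 8 without WT IFN library 4, and 18 with the length trend removed. Sdhb was called in all 15 alternatives tried, Cox8a and Cyc1 in 13, Ndufs3 in 12 and Atp5b in 7.

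IL4 treatment called fewer members than IFN in each genotype. In KO cells 12 of 80 members rose over untreated and none fell (15%), against 4.79% of all genes called higher and 3.66% called lower. The median log2 fold change was 0.55 over members and 0.01 over all genes, and in 29 members (36.2%) all KO IL4 libraries lay above all KO untreated ones, against 11.3% of all genes. The 12 were Ndufa7, Ndufb4 and Ndufb5 of complex I, Sdha and Sdhb of complex II, Cyc1 of complex III, Cox7b, Cox7c and Cox8a of complex IV, and Atp5b, Atp5c1 and Atp5h of complex V. Cox8a had 224, 314 and 288 CPM in KO IL4, against 131, 142 and 159 CPM in KO untreated (0.94, SE 0.20, edgeR adjusted p = 0.00733). Atp5c1 had 183, 207 and 226 CPM in KO IL4, against 111, 124 and 144 CPM in KO untreated (0.70, SE 0.16, edgeR adjusted p = 0.0128). Neither pair of groups overlapped.

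Sdhb had 154, 162 and 178 CPM in KO IL4, against 108, 109 and 110 CPM in KO untreated (0.59, SE 0.16, edgeR adjusted p = 0.0284). Sdha had 286, 312 and 322 CPM in KO IL4, against 242, 227 and 243 CPM in KO untreated (0.37, SE 0.11, edgeR adjusted p = 0.0494). Both complex II subunits were therefore above untreated in every KO IL4 library. Ndufb4 had 39.6, 48.2 and 52.1 CPM in KO IL4, against 25.5, 24.7 and 30.7 CPM in KO untreated (0.79, SE 0.20, edgeR adjusted p = 0.0202). Cyc1 had 75.5, 103 and 124 CPM in KO IL4, against 55.5, 63.7 and 69.9 CPM in KO untreated (0.68, SE 0.20, edgeR adjusted p = 0.0450). Of the rest, Atp5h (0.77, edgeR adjusted p = 0.0313), Ndufa7 (0.71, edgeR adjusted p = 0.0319), Cox7c (0.84, edgeR adjusted p = 0.0322) and Atp5b (0.75, edgeR adjusted p = 0.0359) were near the threshold. The count was 1 without KO untreated library 1 or 2 or KO IL4 library 9, 2 without KO IL4 library 8, 25 without KO IL4 library 7 and 1 with only the KO IL4 and KO untreated groups fitted, against 28 in DESeq2. With the length trend removed it was 21, where 9.26% of all genes were called, and the median was 0.27. For the other refits the share of all genes is not given, so their counts do not show a change of the members alone. Leaving out 1 library, the median ran from 0.39 to 0.71. Cox8a was called in all 14 alternatives, Atp5c1 in 10 and Ndufa7 in 5.

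In WT cells 2 of 80 members rose with IL4 and none fell (2.5%), against 4.32% of all genes called higher and 2.89% called lower. The median log2 fold change was 0.34 over members and -0.01 over all genes, beside 0.19 with IFN over the same untreated libraries. It was 0.21 without WT untreated library 1 and 0.24 with the length trend removed. In 15 members (18.8%) all WT IL4 libraries lay above all WT untreated ones, against 13.8% of all genes. Sdha had 292, 313 and 355 CPM in WT IL4, against 229, 215 and 216 CPM in WT untreated. All WT IL4 libraries lay well above, with a log2 fold change of 0.54 (SE 0.11, edgeR adjusted p = 0.00591), called in all 15 alternatives. Cyc1 had 79.9, 106 and 119 CPM in WT IL4, against 55.6, 65.1 and 65.3 CPM in WT untreated (0.71, SE 0.20, edgeR adjusted p = 0.0378). Cyc1 was called in 8 of 15 alternatives, and the count of members called was 1 when WT untreated library 1, 2 or 3 or WT IL4 library 8 or 9 was left out, 3 without WT IL4 library 7, 5 in DESeq2 and 7 with the Y-linked covariate. The next, Cox8a (0.67, edgeR adjusted p = 0.0515) and Cox5b (0.88, edgeR adjusted p = 0.0536), did not pass. Both members called in WT were among the 12 called in KO, of which they are 16.7%.

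**Figure D5:**
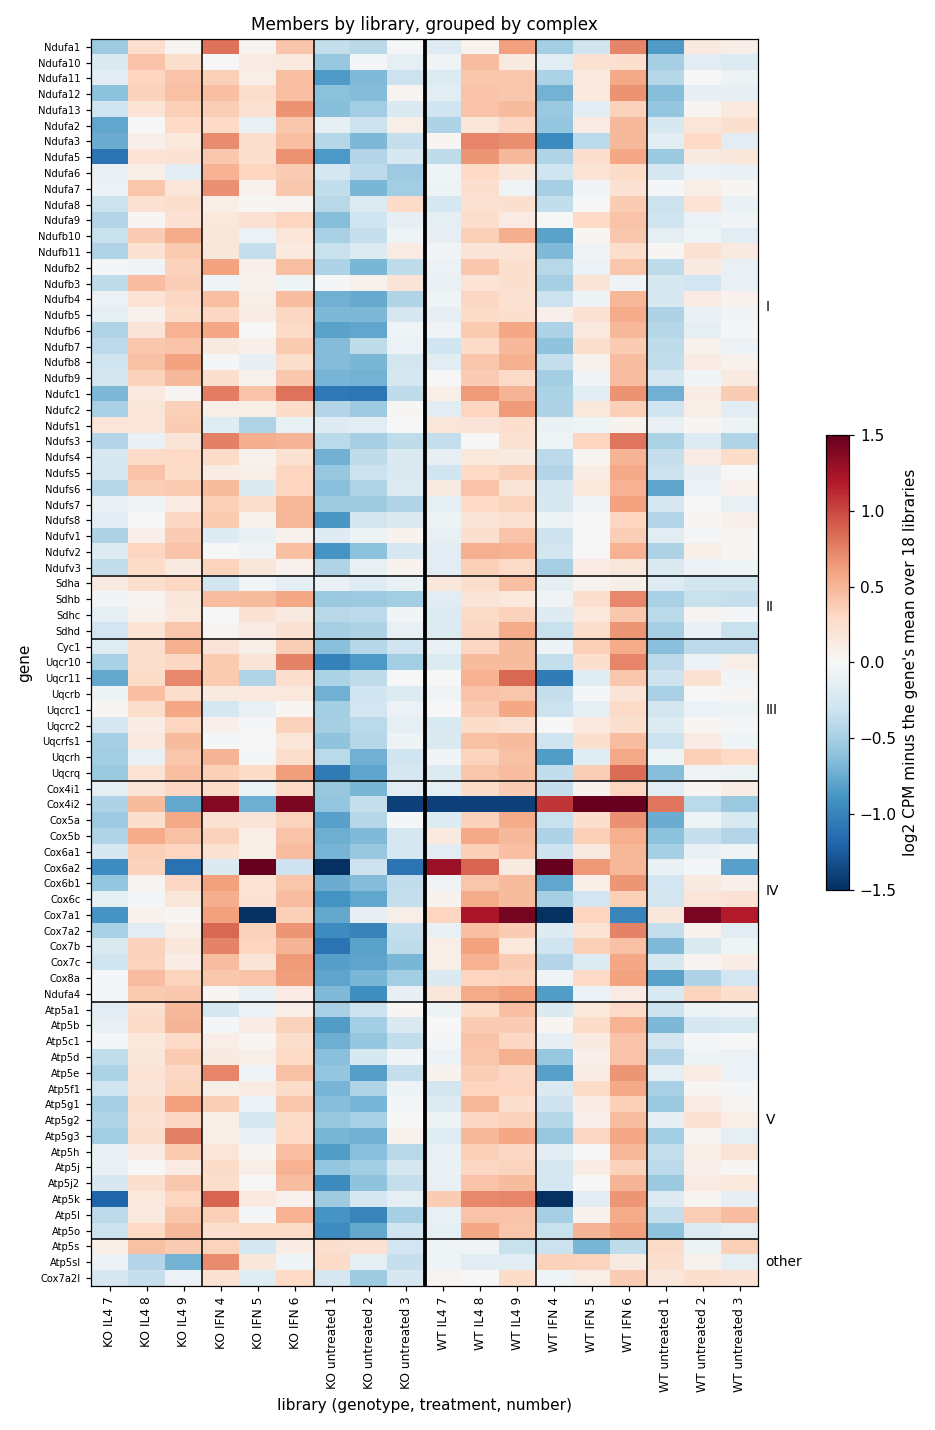
Log2 CPM minus the gene's mean over 18 libraries for 79 of the members tested (rows, grouped by complex) in 18 libraries (columns, by group), with colours limited to 1.5 either way. KO untreated libraries 1 and 2 are low across most rows (medians -0.63 and -0.51), and WT IFN library 6 is high (0.48).

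In KO cells, single subunits of one complex differed between IL4 and IFN with opposite signs. Of 80 members 2 were higher (2.5%) and 5 lower (6.25%) in KO IL4 than in KO IFN, against 9.77% and 12% of all genes, and the median was -0.10 over members and 0.03 over all genes. This median had no stable sign: it ran from -0.24 without KO IL4 library 9 to 0.08 without KO IL4 library 7, and was -0.06 with the length trend removed and 0.02 in limma on log2(TPM + 1). Ndufs1 had 94.3, 94.2 and 108 CPM in KO IL4, against 73.5, 61.1 and 77.0 CPM in KO IFN (0.49, SE 0.11, edgeR adjusted p = 0.00357). Ndufs3 had 37.0, 46.6 and 57.3 CPM in KO IL4, against 84.5, 73.0 and 71.5 CPM in KO IFN (-0.70, SE 0.21, edgeR adjusted p = 0.0217). These core subunits of complex I thus differed with opposite sign, without overlap in either. In complex II, Sdha was higher in KO IL4 (0.39, edgeR adjusted p = 0.0182) and Sdhb lower (-0.46, edgeR adjusted p = 0.0490). Cox7a2 (-0.81, edgeR adjusted p = 0.0286), Ndufa6 (-0.47, edgeR adjusted p = 0.0330) and Atp5sl (-0.70, edgeR adjusted p = 0.0277) were lower as well. Over KO untreated, IL4 gave positive log2 fold changes in Ndufs1 (0.36), Ndufs3 (0.34), Sdha (0.37) and Sdhb (0.59). IFN gave -0.13, 1.04, -0.02 and 1.05 in the same order. The count of 7 was 1 without KO IFN library 4, 4 without KO IFN library 6, 3 without KO IL4 library 7 or 9, 2 without KO IL4 library 8, and 1 with only the KO IL4 and KO IFN groups fitted. Of the 14 alternatives, Ndufs1 was called in 13 and Sdhb in 3.

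In WT cells 1 of 80 members was lower in WT IL4 than in WT IFN (1.25%, against 11.4% of all genes) and none was higher (against 9.09%). It was Cox4i2, at 0 TPM in all WT IL4 libraries, against 1.23, 4.34 and 1.51 TPM in WT IFN (edgeR adjusted p = 0.00471). Its 48 counts over the 3 WT IFN libraries make this a difference at the low end, called in all 14 alternatives, with an adjusted p of at most 0.0204. Ndufs1 had 94.2, 95.2 and 99.0 CPM in WT IL4, against 77.5, 79.5 and 86.5 CPM in WT IFN (0.24, edgeR adjusted p = 0.132), and Sdha 292, 313 and 355 CPM in WT IL4, against 237, 269 and 278 CPM in WT IFN (0.29, edgeR adjusted p = 0.0749). Neither overlapped, and neither passed. Ndufa4 (0.68, edgeR adjusted p = 0.0627) and Cox7a1 (1.79, edgeR adjusted p = 0.123) were the other members with the lowest p. The count was 5 without WT IFN library 6, 2 without WT IFN library 5, 3 without WT IL4 library 7, and 6 with the length trend removed, where 22.3% of all genes were called. The member median was 0.12, between -0.06 without WT IFN library 4 and 0.31 without WT IFN library 6, and -0.02 with the length trend removed.

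KO was set against WT within each treatment. No member was called in KO untreated against WT untreated (edgeR, 0 of 80, and 0 in DESeq2), where 0.032% of all genes, 4 in number, were called. An unadjusted p under 0.05 was reached by 16 of 80 members and by 829 of 12514 genes. With the replicate block, 52 genes were called and 1 of them was a member, Atp5h (-0.61, edgeR adjusted p = 0.0481, against 0.540 without the block). The median log2 fold change was -0.29 over members, with 76 of 80 below 0, and 0.01 over all genes, with 6359 of 12514 above 0. In 20 members (25.0%) all KO untreated libraries lay below all WT untreated ones, against 7.66% of all genes, and 1 member (1.25%) lay above, against 6.43%. The medians were -0.57 in complex IV, -0.34 in complex V, -0.27 in complex III, -0.25 in complex I and -0.10 in complex II. Cox7a2l (chr17:83501918-83517330, minus strand) had 166, 136 and 166 CPM in KO untreated, against 222, 232 and 228 CPM in WT untreated. The groups were apart, yet the log2 fold change of -0.54 (SE 0.15) had an edgeR adjusted p of 0.326. Atp5l had 66.1, 61.3 and 86.4 CPM in KO untreated, against 94.8, 157 and 168 CPM in WT untreated (-0.97, edgeR adjusted p = 0.396). Cox7c (-0.74, edgeR adjusted p = 0.442) and Cox6c (-0.71, edgeR adjusted p = 0.450) followed. With the length trend removed the median was -0.06, and with the Y-linked transcripts as a covariate -0.43.

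Under IFN the sign of the median was the other way and it was less stable. No member was called in KO IFN against WT IFN (edgeR, 0 of 80, against 0.0559% of all genes, and 0 in DESeq2). An unadjusted p under 0.05 was reached by 3 of 80 members and by 747 of 12514 genes. The median was 0.14, and between -0.06 without WT IFN library 4 and 0.34 without WT IFN library 6. With the Y-linked covariate it was -0.10, and with the length trend removed 0.03. The replicate block called 19 genes in place of 7, and no member. Ndufa7 had 75.0, 48.6 and 62.0 CPM in KO IFN, against 33.0, 45.3 and 54.4 CPM in WT IFN (0.49, edgeR adjusted p = 0.737), and the groups overlapped. Cox6c (0.51, edgeR adjusted p = 0.744) and Ndufa6 (0.33, edgeR adjusted p = 0.805) were next. In KO IL4 against WT IL4 no member was called (edgeR, 0 of 80, against 0.0639% of all genes, and 0 in DESeq2). An unadjusted p under 0.05 was reached by 2 of 80 members and by 281 of 12514 genes. The median was -0.12, and it ran from -0.26 without WT IL4 library 7 to 0.07 without KO IL4 library 7. With the Y-linked covariate it was -0.36, and with the length trend removed -0.0044. The replicate block called 21 genes in place of 8, and no member. Cox7a2l had 166, 155 and 184 CPM in KO IL4, against 203, 198 and 239 CPM in WT IL4 (-0.34, edgeR adjusted p = 1.00), without overlap. Averaged over treatments, the KO over WT median was -0.10, with no member called among 0.32% of all genes (0 in DESeq2). An unadjusted p under 0.05 was reached by 2 of 80 members and by 1231 of 12514 genes. The block called 181 genes in place of 40, and no member. The median was -0.0099 with the length trend removed, -0.31 with the Y-linked covariate, -0.16 without WT IFN library 4 and -0.02 without WT IFN library 6. Cox7a2l again had the lowest p, with -0.30 (SE 0.09, edgeR adjusted p = 0.193).

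The difference between genotypes in the response was tested as an interaction. No gene of the 12514 was called for IFN (edgeR, 0%, with 605 genes and 21 members at an unadjusted p under 0.05, while DESeq2 called 26 genes and 0 members), so the larger count of called members in KO is not shown to be a different response. The median difference in response, KO minus WT, was 0.43 on the log2 scale over members and -0.01 over all genes. It was 0.73 in complex IV and 0.03 in complex II. The lowest p were those of Cox6c (1.22, SE 0.31, edgeR adjusted p = 0.570), Ndufa7 (1.04, SE 0.27, edgeR adjusted p = 0.598), Cox7c (1.14, SE 0.32, edgeR adjusted p = 0.653) and Ndufb4 (0.90, SE 0.28, edgeR adjusted p = 0.769). With the length trend removed the median was 0.04, with the Y-linked covariate 0.31, without WT IFN library 4 0.24 and without WT IFN library 6 0.62. For IL4 no gene was called either (edgeR, 0%, with 189 genes and 3 members at an unadjusted p under 0.05, while DESeq2 called 1 gene and 0 members). The median was 0.20 over members, 0.04 with the Y-linked covariate and 0.02 with the length trend removed, and it ran from 0.05 without WT IL4 library 7 to 0.36 without KO IL4 library 7.

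The genes around the complexes gave a reading of the same samples outside the members. The 13 subunits coded by mitochondrial DNA, which complete complexes I, III, IV and V, had a median log2 fold change of 0.91 in WT IL4 against WT IFN. Of these, 6 were higher (against 9.09% of all genes) and none lower (against 11.4%). Their median was 0.45 in KO IL4 against KO IFN, with none called (against 9.77% of all genes higher and 12% lower). Among them mt-Nd3, a subunit of complex I named after its values were seen, was higher by 1.76 in WT IL4 than in WT IFN (edgeR adjusted p = 0.00133) and lower in WT IFN than in WT untreated (-1.39, edgeR adjusted p = 0.00878). In KO IFN against KO untreated the median of the 13 was 0.13 with none called (against 12.2% of all genes higher and 8.42% lower), beside 0.68 in the nuclear members. In WT IFN against WT untreated it was -0.48, with all 13 below 0 and 1 called lower (against 6.99% of all genes), beside 0.19 in the nuclear members. In KO untreated against WT untreated it was -0.46, with all 13 below 0 and none called (against 0.032% of all genes), beside -0.29 in the nuclear members. These libraries were selected for poly(A), which limits how mitochondrial transcripts are read.

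Glycolysis enzymes were called higher with IFN and lower in IL4 than in IFN. Of 20 tested, 6 rose and none fell in KO IFN over untreated (against 12.2% of all genes higher), and 8 rose and none fell in WT IFN over untreated (against 10.6%). In IL4 over untreated, 1 rose and 2 fell in KO (against 4.79% and 3.66% of all genes), and 4 rose and none fell in WT (against 4.32% and 2.89%). In IL4 against IFN, 8 were lower in KO (against 12% of all genes) and 7 in WT (against 11.4%), with none higher in either. Pfkp, a phosphofructokinase, rose with IFN by 1.73 in KO (edgeR adjusted p = 8.79e-08) and 2.00 in WT (edgeR adjusted p = 2.62e-08), and with IL4 by 1.39 in KO (edgeR adjusted p = 7.92e-06) and 1.55 in WT (edgeR adjusted p = 2.24e-06). Hk3, a hexokinase, rose by 3.04 in KO IFN (edgeR adjusted p = 7.22e-07) and 3.20 in WT IFN (edgeR adjusted p = 5.47e-07).

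For the counts that follow, 12.2% of all genes were called higher and 8.42% lower in KO IFN, and 10.6% and 6.99% in WT IFN. With IL4 these shares were 4.79% and 3.66% in KO and 4.32% and 2.89% in WT. Counts in such short lists are a description, not a result about the list. Of 22 assembly factors of complex IV tested, 6 rose and 1 fell in KO IFN over untreated, and 4 rose and none fell in WT IFN. Coa5, one of them, rose by 2.09 in KO (edgeR adjusted p = 2.56e-08) and by 2.09 in WT (edgeR adjusted p = 2.89e-08). Of 15 complex I assembly factors, 1 rose in KO IFN and 1 fell in WT IFN, and of 10 for complexes II and III and 4 for complex V none was called in either. Of 20 citric acid cycle enzymes, 4 rose and 1 fell in KO IL4 over untreated, 3 rose and none fell in WT IL4, 4 rose and 2 fell in KO IFN, and 5 rose and 1 fell in WT IFN. Among 17 regulators of mitochondrial biogenesis tested, 2 rose and none fell in KO IL4 and 1 rose in WT IL4. With IFN, 2 of them rose and 1 fell in each genotype. Ppargc1b rose with IL4 by 2.68 in KO (edgeR adjusted p = 0.000140) and by 3.13 in WT (edgeR adjusted p = 4.62e-05). Of 19 genes of electron carriers and coenzyme Q synthesis, 4 rose and 1 fell with IFN in each genotype. Of 13 genes of uncoupling and mitochondrial carriers, 4 rose in KO IFN and 3 in WT IFN, with none lower.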

How the data were processed

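Poly(A) RNA of 18 libraries was sequenced, per the labels' protocols, which do not settle whether libraries were strand-specific. Reads were processed with Bowtie 0.12.8 and RSEM 1.2.3 on mm10, per the submitters' processing notes. The authors deposited expected counts per gene, which RSEM estimates and which need not be whole, and TPM, which are scaled by transcript length. A further deposited table of median-normalized TPM was not used. Of the expected counts, 21.5% were not whole, and all were rounded for the count tests. No column lacked a sample (0 unmapped).

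All 12 comparisons came from 1 edgeR quasi-likelihood fit over 6 groups (edgeR 4.0.16, R 4.3.3), with edgeR's filter on low counts, TMM scaling and Benjamini-Hochberg adjustment over 12514 genes at 0.05. The common biological coefficient of variation was 0.301. CPM are TMM-scaled, with a prior count of 2 where logged. Alternatives were DESeq2 1.42.0 (also its size factors in edgeR), no filter, limma 3.58.1 on log2(TPM + 1) and log2(TPM + 0.1), only the groups compared, Y-linked transcripts as a covariate, an offset that removes each library's length trend, a replicate block, and leaving out each library. Averaging WT untreated libraries 2 and 3 was added after seeing the data: their counts gave 5.90 in a chi-square test divided by its degrees of freedom, against 48.3 to 179 in the other replicate pairs, and were kept as 2 libraries.

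Replicate numbers are shared between genotypes. Over all 12514 genes, deviations of same-numbered libraries correlated at 0.59, 0.32 and 0.45 with IL4 and at 0.30, 0.14 and 0.28 with IFN. With IL4 each value was above those of unlike numbers (at most 0.13), as paired libraries would give. This is a check on the data, since the labels state no pairing, and other sources of such a correlation were not tested. Untreated, same-numbered libraries correlated at 0.60, 0.04 and 0.36, which does not show a pairing. Over the 9712 genes with a mean log2 CPM above 2, the IFN values were 0.37, 0.04 and 0.27. There KO IFN library 5 correlated more with WT IFN library 6 (0.10) than with number 5, so a pairing is not shown with IFN either. The block changed no call among members with IL4 or IFN.

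Named members are, per comparison, up to 8 called in each direction with the lowest p (with under 4 called, the 4 lowest p), the highest and lowest mean TPM of each complex, and preset isoforms and catalytic subunits. From related lists, at most 3 genes with the lowest p are named. Ndufs7, Ndufs8, Uqcrq, Atp5j and, for the block, Atp5h were named after their values were seen, and the promoters were chosen for the motifs they hold. The NRF1 and interferon-stimulated motifs were shortened after shares of longer forms had been seen. Values of 1 preset subunit and 1 motif are not reported here. Members and lists were chosen with earlier results of these data known. Gene positions are from GENCODE vM21 (85 of 85 matched), and promoters from RefSeq. Summed markers of T, B and NK cells, neutrophils, mast cells and erythroid cells were at most 9.98 CPM in any library. Python 3.11.15 drew the figures.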

Additional observations from a re-analysis of the deposited data

Results flagged for a closer look

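Ndufa6, an accessory subunit of complex I, was below WT in every KO library when untreated and above WT in every KO library with IFN. It had 52.3, 45.4 and 47.5 CPM in KO IFN, against 29.6, 42.0 and 44.1 CPM in WT IFN. It had 30.3, 27.6 and 24.8 CPM in KO untreated, against 30.5, 34.1 and 33.9 CPM in WT untreated. The difference in response, KO minus WT, was 0.58 on the log2 scale (SE 0.21), and the interaction test did not pass (edgeR adjusted p = 0.887). The highest KO untreated library and the lowest WT untreated library are close, and so are the lowest KO IFN and the highest WT IFN library. Ndufa6 was found by searching the 80 members for groups that lay apart in opposite directions in a pair of comparisons. How many of all genes meet this rule was not computed. With the length trend removed, its log2 fold change in KO IFN against WT IFN was 0.16 in place of 0.33, with no call in either.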

How the results depend on the processing

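Of 406 counts and medians recomputed under alternatives, 57 moved by over the spread between libraries, by over 1.5 times or past the threshold. A reversed sign was looked for only in the single genes named by rule, and none of these reversed. Some medians changed sign. KO IFN against WT IFN went from 0.14 to -0.10 with the Y-linked covariate. KO IL4 against KO IFN went from -0.10 to 0.02 in limma on log2(TPM + 1). With the length trend removed, the median was -0.065 in KO against WT untreated, 0.31 in KO IFN, 0.27 in KO IL4 and 0.040 for the IFN interaction. The calls were then 18 in WT IFN (against 20.3% of all genes), 5 in WT IL4 (8.89%), 21 in KO IL4 (9.26%) and 6 in WT IL4 against IFN (22.3%). In limma on log2(TPM + 1) and log2(TPM + 0.1) the calls were 19 and 19 in KO IFN (medians 0.31 and 0.31), 6 and 6 in KO IL4 (median 0.27 with 1) and 3 and 3 in WT IL4 against IFN, the interaction medians were 0.16 and 0.16, and WT IFN had 8 with 1. DESeq2 called 5 in WT IL4, 28 in KO IL4 and 3 in WT IL4 against IFN, and the Y-linked covariate gave 7, 28 and 3. Fitting only the groups compared gave 4 in WT IL4, 1 in KO IL4 and 1 in KO IL4 against IFN. WT IL4 had 1 without the filter and 1 with WT untreated libraries 2 and 3 averaged. Apart from the fits with the length trend removed, these counts are given without the share of all genes called under the same setting. They do not show a change of the members alone. The cause of these shifts was not tested.

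With the replicate block, 1 member, Atp5h, was called, lower, in KO against WT untreated, among 52 genes called in all, where the numbers are not shown to pair the libraries. The block gave member medians of -0.29 untreated, 0.17 with IFN and -0.12 with IL4, and changed no other count of members called.

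Leaving out 1 library at a time, the calls ran from 18 to 37 in KO IFN, 1 to 8 in WT IFN, 1 to 25 in KO IL4, 1 to 3 in WT IL4, 1 to 7 in KO IL4 against IFN and 1 to 5 in WT IL4 against IFN. The shares of all genes called in these fits are not given. No library left out gave a member call in KO against WT or in an interaction. The members under 1 TPM rest on few counts, which limits what can be resolved there. Cox4i2 in WT IL4 against IFN was called in all 14 alternatives, but these reuse the same few counts and add no independent support.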
